A study of Mus musculus with 5 samples.

Results

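The genes examined here are 10 imprinted genes, Dlk1, Peg3, Ndn, Nnat, Impact, Snrpn, Grb10, Plagl1, Magel2 and Cdkn1c, chosen by name from a table of 15093 genes measured in ribosome-bound RNA of Drd2 neurons of the mouse central amygdala (CeA). All 10 were present in the table, and all 10 were among the 13560 genes with a mean signal of at least 1. Dlk1 was picked because of its difference between fear conditioned and control libraries, and the other 9 were proposed beside it with that comparison known. Values of the comparison are therefore given for these genes as a description, and no gene of the 10 is held to differ on the strength of a test.

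An imprinted gene is transcribed mainly from the copy inherited from 1 parent, because methylation marks set in the egg or the sperm differ between the copies. Imprinted genes lie in clusters, in which a shared control element often sets the activity of several neighbouring genes. Many of them act on fetal growth and metabolism, and in the brain several are known from hypothalamic and other neuroendocrine neurons. Of the 10 genes, Dlk1, Peg3, Ndn, Nnat, Impact, Snrpn, Plagl1 and Magel2 are known as paternally expressed and Cdkn1c as maternally expressed, while Grb10 is maternally expressed in most tissues and paternally expressed in neurons. The libraries hold no information on the parental allele, so only the summed output of both copies was measured.

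Ribosome-bound RNA was isolated by translating ribosome affinity purification (TRAP), in which an EGFP-tagged ribosomal protein L10a is pulled down from tissue. All animals were adult Drd2-TRAP mice, a cross of a Drd2-Cre BAC transgenic line with a Rosa26 line carrying floxed-stop EGFP/Rpl10a, so that both groups carried both transgenes and the tag marks any cell in which Cre had been active. There were 3 libraries from fear conditioned mice (numbered 2, 3 and 4) and 2 libraries from controls (numbered 6 and 7), each made from bilateral punches of the CeA pooled from 3 animals. The labels name the controls home cage animals and place collection 2 h after extinction, whereas the study's results describe collection 2 h after conditioning and controls that heard the tone without shock. The study's methods mark the same controls as HC, its abbreviation for home cage, so its own text is divided on them. The sex of the animals was not given in the sources used here, and nothing further says how independent the pools were, so the spread between libraries may be partly technical.

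The libraries held between 19605318 and 27937520 reads on genes, and 3 reads, taken as the floor of detection, corresponded to a signal of 0.1002 to 0.158. The signal is a read count per 1000000 (CPM) of an effective library size. The home cage libraries stood apart from each other. Of the 13560 genes tested, 52.7% differed by more than 1 log2 unit between home cage libraries 6 and 7, and home cage library 7 alone had at most 3 reads for 13.3% of the genes tested, against 2.05% for home cage library 6. Every library expressed Drd2, with signals of 326 to 555 after fear conditioning and 128 and 262 in home cage libraries, whereas Drd1a had 33.9 to 83.5 and 15.2 and 27.6.

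The 10 genes differed widely in level. With the signal divided by the deposited gene length, Snrpn was the highest of them with a mean of 1311 per kilobase over the 5 libraries, above 99.9% of the listed genes. Snrpn encodes SmN, a core protein of the spliceosomal small nuclear ribonucleoproteins that is typical of neurons. Next came Ndn, Nnat and Impact, with means of 191, 182 and 87.2 per kilobase. Necdin, the product of Ndn, is a MAGE family protein of postmitotic neurons, neuronatin (Nnat) is a small membrane protein of the endoplasmic reticulum, and IMPACT binds GCN1 and restrains the eIF2 alpha kinase GCN2. Peg3, a zinc finger protein gene, had a mean of 16.1 per kilobase. The other 5 genes were lower, and a mean over all libraries describes neither group for most of them. Dlk1 had 0.430 to 0.797 per kilobase after fear conditioning and 3.36 and 9.67 in home cage libraries 6 and 7. Plagl1 had 0.676 to 1.57 after fear conditioning and 11.4 in home cage library 6, and Grb10 had 1.97 to 2.38 against 4.01 and 8.93.

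On the scale of log2 signal per kilobase, the order was Snrpn, Ndn, Nnat, Impact, Peg3, Grb10, Magel2, Dlk1, Cdkn1c and Plagl1. Snrpn was above Ndn, Nnat above Impact, Impact above Peg3 and Peg3 above Grb10 in all 5 libraries. Ndn and Nnat differed by 0.03 on average, with a standard deviation of the difference of 0.65 over the libraries, so their order was not beyond the spread. The same held for Grb10 and Magel2 (0.97 with a standard deviation of 1.18), Magel2 and Dlk1 (0.14 with a standard deviation of 0.47), Dlk1 and Cdkn1c (0.08 with a standard deviation of 3.47) and Cdkn1c and Plagl1 (0.47 with a standard deviation of 0.92).

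**Figure D1:**
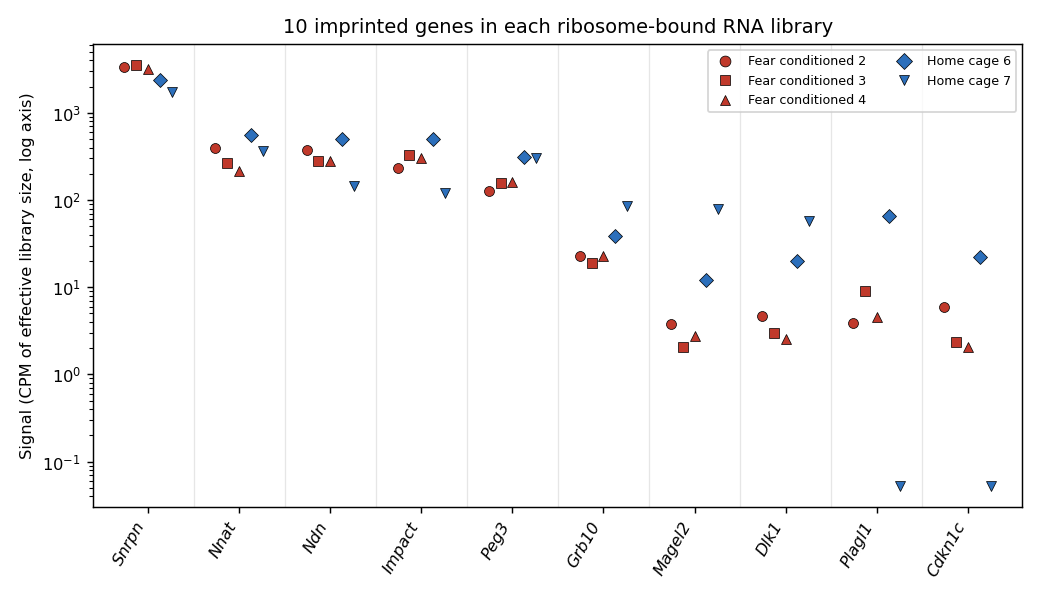
Signal of the 10 imprinted genes in each library, in CPM of the effective library size on a log axis, with genes ordered by their mean over the 5 libraries; each point is 1 library, red for fear conditioned and blue for home cage. The red points of a gene span from 1.10-fold for Snrpn to 2.86-fold for Cdkn1c. Home cage libraries 6 and 7 are far apart for Plagl1 and Cdkn1c, with 1 read each in home cage library 7.

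Dlk1 and Magel2 were the members with the greatest difference between groups. Dlk1 (ENSMUSG00000040856) encodes a transmembrane protein with EGF repeats that is related to the Notch ligands. Its signal was 4.69, 3.00 and 2.53 in the fear conditioned libraries, from 99, 72 and 51 reads, and 19.8 and 56.9 in home cage libraries 6 and 7, from 593 and 1080 reads. The groups did not overlap, and the lower home cage library was several times above the highest fear conditioned library. The group means were 3.41 ± 1.14 (SD, n = 3) and 38.4 ± 26.3 (SD, n = 2), 11.3-fold lower after fear conditioning. On the log2(signal + 1) scale the difference, fear conditioned minus home cage, was -3.01 with a standard error of 0.64. The home cage libraries themselves differed by 1.48 on the same scale.

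Magel2 (ENSMUSG00000056972) encodes a MAGE protein that works with the ubiquitin ligase TRIM27 in endosomal protein sorting. Its signal was 3.79, 2.08 and 2.78 in the fear conditioned libraries, from 80, 50 and 56 reads, and 11.99 and 80.0 in home cage libraries 6 and 7, from 359 and 1517 reads. All fear conditioned values were below both home cage values, but home cage library 7 was 6.67-fold above library 6. The means were 2.89 ± 0.860 (SD, n = 3) and 46.0 ± 48.1 (SD, n = 2), and the log2 difference was -3.08 with a standard error of 0.86. Without home cage library 7 the log2 difference was -1.76, and without home cage library 6 it was -4.41. For Dlk1 the corresponding values were -2.27 and -3.75, so both genes were lower after fear conditioning whichever home cage library was used. Over the 5 libraries, the profile of Magel2 was the nearest to that of Dlk1 among the other 9 genes, at rank 24 of 13559 genes by distance. Both genes were proposed with the comparison of these same libraries known, so the rank is a description and no shared regulation is read from it.

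The 250 bases before the annotated start are shown for 4 genes. These are Dlk1 and Magel2 with the greatest difference between groups, Ndn as the neighbour of Magel2 whose groups overlapped, and Peg3, whose home cage libraries agreed most closely. They are taken from RefSeq (GRCm38.p6), are written 5′ to 3′ on the strand of the gene, and have each CpG, the dinucleotide at which imprinting marks are set, in capitals. The windows are chr12:109452573-109452822 (plus strand) for Dlk1, chr7:62376729-62376978 (plus strand) for Magel2, chr7:62348027-62348276 (plus strand) for Ndn and chr7:6730420-6730669 (minus strand) for Peg3. Methylation was not measured in these samples.
Dlk1: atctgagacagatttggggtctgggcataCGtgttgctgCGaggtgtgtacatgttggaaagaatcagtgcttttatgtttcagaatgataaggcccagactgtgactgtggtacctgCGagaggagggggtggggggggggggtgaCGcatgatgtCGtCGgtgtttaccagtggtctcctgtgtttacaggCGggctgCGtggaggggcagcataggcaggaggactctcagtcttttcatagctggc
Magel2: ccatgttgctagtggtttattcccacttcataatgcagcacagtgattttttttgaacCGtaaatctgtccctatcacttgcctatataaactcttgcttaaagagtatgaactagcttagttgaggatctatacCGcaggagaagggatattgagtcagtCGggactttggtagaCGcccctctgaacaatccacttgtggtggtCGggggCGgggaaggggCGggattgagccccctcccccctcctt
Ndn: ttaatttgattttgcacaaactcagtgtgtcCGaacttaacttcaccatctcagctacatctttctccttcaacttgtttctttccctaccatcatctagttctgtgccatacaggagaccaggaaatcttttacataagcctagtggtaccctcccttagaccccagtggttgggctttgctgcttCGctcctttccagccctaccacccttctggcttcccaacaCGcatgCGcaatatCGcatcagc
Peg3: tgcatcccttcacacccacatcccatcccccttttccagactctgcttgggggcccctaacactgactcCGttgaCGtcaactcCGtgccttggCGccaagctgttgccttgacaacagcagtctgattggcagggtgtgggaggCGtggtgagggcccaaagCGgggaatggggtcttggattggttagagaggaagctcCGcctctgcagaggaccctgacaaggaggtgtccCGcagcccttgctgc

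Dlk1 and Peg3 each had 8 CpG dinucleotides in this window, Magel2 had 7 and Ndn had 5, against a median of 6 over 32851 windows of the same length in the RefSeq table. Of all windows, 44.4% held fewer CpG than that of Ndn and 57.0% fewer than those of Dlk1 and Peg3. The TATAAA motif, searched on both strands, was present in the window of Magel2 and in 12.4% of all windows. The GGGCGG motif, the core of sites for SP1, was present in the window of Magel2 and in 32.7% of all windows. CCAAT was present in the window of Peg3 and in 33.8% of all windows. Such matches are a description of the letters and do not show binding. Of the 10 genes, 8 had at least 1 window in the table.

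Ndn and Magel2 lie next to each other, with 28452 bases between their promoter windows, in the cluster that is syntenic to the human Prader-Willi region. The ratio of the Ndn signal to the Magel2 signal, not corrected for gene length, was 99.3, 134 and 100 after fear conditioning, 41.7 in home cage library 6 and 1.80 in home cage library 7. It thus differed more between the home cage libraries than among the fear conditioned ones. Ndn (ENSMUSG00000033585) had a signal of 376, 279 and 278 after fear conditioning and of 499.5 and 144 in home cage libraries 6 and 7. The fear conditioned values lay between those of the home cage libraries, with means of 311 ± 56.6 (SD, n = 3) and 322 ± 251 (SD, n = 2). For Snrpn, of the same cluster, the ratio to Ndn, again not corrected for length, was 4.83 in home cage library 6 and between 9.01 and 12.7 in the other 4 libraries.

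Peg3 was the steadiest of the lower genes. Peg3 (ENSMUSG00000002265) encodes a Krüppel-type zinc finger protein. Its signal was 126, 157 and 161 after fear conditioning and 309 and 305 in home cage libraries 6 and 7, from 2664 to 9267 reads per library. The home cage values were nearly equal, and both lay well above the highest fear conditioned value. The means were 148 ± 18.9 (SD, n = 3) and 307 ± 3.34 (SD, n = 2), 2.07-fold lower after fear conditioning, and the log2 difference was -1.06 with a standard error of 0.21. Only 2.18% of the 13560 genes tested had a smaller gap between the home cage libraries. With any single library left out, the log2 difference stayed between -1.12 and -0.95.

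Grb10 (ENSMUSG00000020176), an adaptor protein that binds and restrains the insulin and IGF1 receptors, had a signal of 23.0, 19.03 and 22.7 in the fear conditioned libraries and of 38.7 and 86.2 in home cage libraries 6 and 7. Each fear conditioned value was below both home cage values. The means were 21.6 ± 2.22 (SD, n = 3) and 62.5 ± 33.6 (SD, n = 2), and the log2 difference of -1.39 (standard error 0.43) was little larger than the gap of 1.14 between the home cage libraries. Without home cage library 7 it was -0.82.

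Snrpn was the 1 member with all fear conditioned libraries above both home cage libraries. Snrpn (ENSMUSG00000000948) had a signal of 3391, 3541 and 3216 in the conditioned mice and of 2414 and 1758 in home cage libraries 6 and 7. The means were 3383 ± 162 (SD, n = 3) and 2086 ± 464 (SD, n = 2), 1.62-fold higher after fear conditioning, with a log2 difference of 0.71 (standard error 0.29). After quantile normalization the log2 difference was 0.45. Reads of Snrpn could be split with its close paralog Snrpb, which had 92.2 to 132 after fear conditioning and 65.4 and 77.3 in the home cage libraries. Snurf, which shares a transcript with Snrpn, had no row of its own in the table.

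Nnat, Impact and, as given above, Ndn did not separate the groups. Nnat (ENSMUSG00000067786) had a signal of 392.2, 263 and 218 after fear conditioning and of 552 and 365 in home cage libraries 6 and 7, so that fear conditioned library 2 lay above home cage library 7. The log2 difference was -0.67 with a standard error of 0.33. Nnat lies within an intron of Blcap, whose signal was 200 to 284 after fear conditioning and 298 and 101 in home cage libraries 6 and 7, and reads of overlapping genes cannot be told apart where strand was not used. Impact (ENSMUSG00000024423) had 232, 333 and 308 after fear conditioning and 501 and 119 in home cage libraries 6 and 7. Its fear conditioned values lay between the home cage values, as those of Ndn did. The log2 differences of 0.20 for Ndn and 0.23 for Impact turned to -0.70 and -0.80 without home cage library 7, and DESeq2 and edgeR on the recovered reads also placed both slightly below 0.

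Plagl1 and Cdkn1c showed the largest gap between the home cage libraries. Plagl1 (ENSMUSG00000019817), a zinc finger transcription factor gene known for acting on other imprinted genes, had a signal of 3.89, 9.04 and 4.52 in the fear conditioned libraries, from 82, 217 and 91 reads. In home cage library 6 it had 65.4, from 1959 reads, and in home cage library 7 it had 1 read. Cdkn1c (ENSMUSG00000037664), which encodes the cyclin-dependent kinase inhibitor p57, had a signal of 5.97, 2.33 and 2.09 in the fear conditioned libraries, from 126, 56 and 42 reads. It had 22.2 in home cage library 6, from 665 reads, and 1 read in home cage library 7. For both genes the fear conditioned libraries lay below home cage library 6 and above home cage library 7.

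The sign of the group difference of Plagl1 and Cdkn1c depended on which home cage library was used. The log2 difference of Plagl1 was -3.36 without home cage library 7 and 2.62 without home cage library 6, and that of Cdkn1c was -2.48 and 1.98. At a pseudocount of 0.1 it also turned, from -0.37 to 0.80 for Plagl1 and from -0.25 to 0.79 for Cdkn1c. The gap between the home cage libraries was larger than that of 99.9% of the genes tested for Plagl1 and of 97.6% for Cdkn1c. At most 3 reads in home cage library 7 with more in the other 4 libraries, which held for these 2 of the 10 genes, was found in 13.3% of all genes tested.

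**Figure D2:**
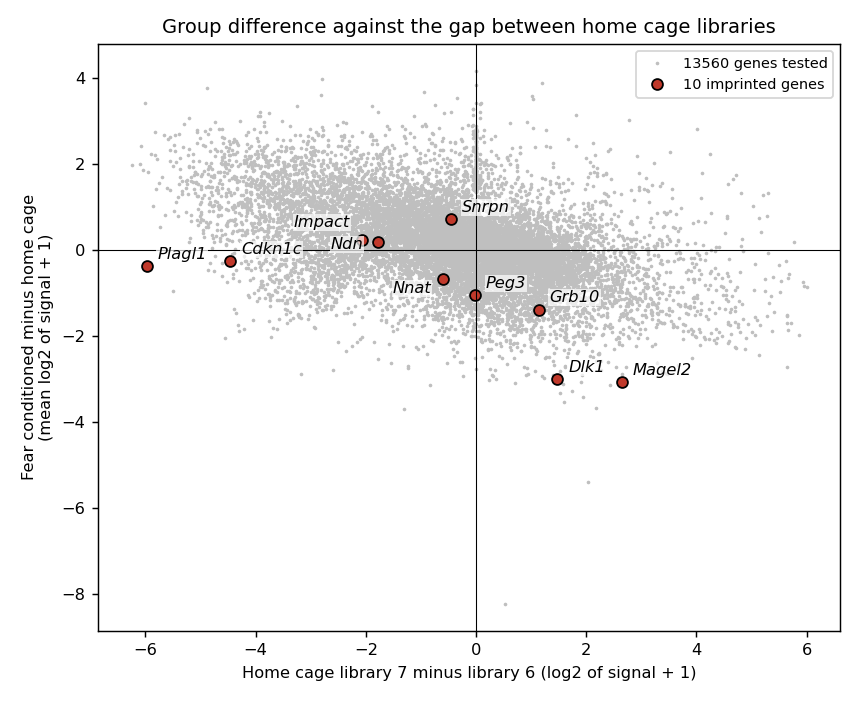
Difference between groups (vertical, fear conditioned minus home cage, mean log2 of signal + 1) against the gap between the home cage libraries (horizontal, library 7 minus library 6, log2 of signal + 1) for the 13560 genes tested in grey and the 10 imprinted genes in red. Dlk1 and Magel2 lie at -3.01 and -3.08 on the vertical axis, Peg3 has a gap near 0, and Plagl1 and Cdkn1c lie far to the left at gaps of -5.98 and -4.46.

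In the comparison of the groups over all genes, limma with Benjamini-Hochberg adjustment called 0 of the 13560 genes (0%) when an adjusted p under 0.05 and a log2 difference over 0.5 in size were required, and hence 0 of the 10 imprinted genes. The unadjusted p was under 0.05 for 2280 genes (16.8%). On the recovered reads, edgeR's quasi-likelihood test also called 0 genes, whereas DESeq2 called 1128 of 15093 (7.47%). The groups did not overlap for 5 of the 10 genes, against 36.4% of the genes tested. Of these, Dlk1, Magel2, Grb10 and Peg3 were lower after fear conditioning, a pattern found in 16.1% of the genes tested, and Snrpn was higher, a pattern found in 20.2%. The median log2 difference was -0.52 over the 10 genes and 0.08 over all genes tested. Since the genes were proposed with this comparison known, nothing is read from these counts.

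The spread between libraries was larger in the home cage group. The range of the 3 fear conditioned libraries had a median of 0.58 log2 units over the 10 genes, against 0.44 over all genes tested. The gap between the home cage libraries had a median of 1.63 log2 units, against 1.08, and 7 of the 10 genes had a gap over 1. The plot of the difference with each library left out shows where this spread enters. Leaving out a fear conditioned library moved no gene across 0, whereas leaving out 1 home cage library did so for Ndn, Impact, Plagl1 and Cdkn1c.

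**Figure D3:**
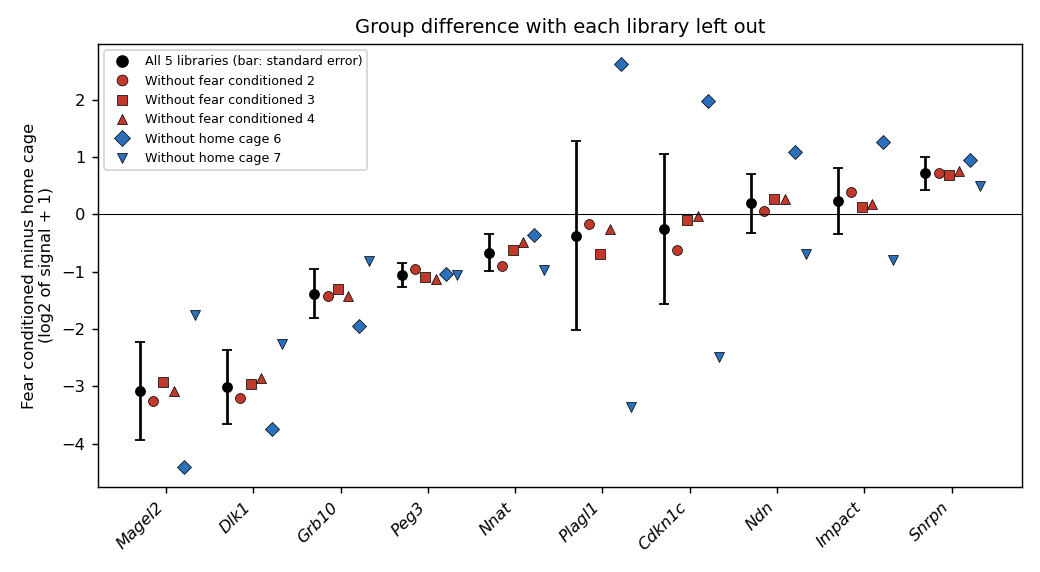
Log2 difference, fear conditioned minus home cage on the log2(signal + 1) scale, for each of the 10 imprinted genes with all 5 libraries (black, with its standard error) and with each library left out in turn (coloured points). For Plagl1 the value runs from -3.36 to 2.62, while for Peg3 it stays between -1.12 and -0.95.

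To place the 10 genes among imprinted genes, a list of 42 other imprinted genes was examined, of which 33 were in the table and 30 were tested. Of these 30 genes, limma called 0 in either direction, with adjusted p values from 0.200 to 0.989. At an unadjusted p under 0.05 in that fit, 1 was higher and 3 were lower after fear conditioning. Of all 13560 genes tested, 1287 were higher and 993 lower at that level, 16.8% together. The groups lay apart for 11 of the 30 genes (36.7%), 3 higher and 8 lower, close to the 36.4% of all genes tested. The median log2 difference was -0.27, with 10 genes above 0 and 20 below 0. Of the genes known as paternally expressed, the groups lay apart for 6 of 16 tested, and of those known as maternally expressed for 4 of 13.

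The cluster that holds Dlk1 also holds the maternally expressed noncoding RNAs Meg3, Rian and Mirg and the paternally expressed Rtl1 and Dio3. The signal of Meg3 was 551, 236 and 542 after fear conditioning and 1118 and 1331 in home cage libraries 6 and 7, with a log2 difference of -1.56, a standard error of 0.42 and a limma adjusted p of 0.206. All fear conditioned libraries were below both home cage libraries, as for Dlk1, but the ratio of the signals of Meg3 and Dlk1, not corrected for length, was between 78.6 and 214 after fear conditioning and 56.5 and 23.4 in home cage libraries 6 and 7. Rian had 7.54 to 15.04 after fear conditioning, 34.0 in home cage library 6 and 1 read in home cage library 7, although the neighbouring Meg3 had 25237 reads in that library. Rtl1 and Dio3 had 437 and 172 reads in home cage library 6 and 0 in home cage library 7. Mirg had 1.67 to 4.31 after fear conditioning and 4.04 and 1.79 in the home cage libraries.

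Among growth genes, Igf2 and its receptor gene Igf2r were lower after fear conditioning in every library pair. Igf2, which encodes a fetal growth factor and is also made by choroid plexus and meninges, had a signal of 1.499 to 2.93 after fear conditioning and of 12.3 and 34.2 in home cage libraries 6 and 7. Its log2 difference was -2.68 (standard error 0.66, adjusted p = 0.200 in the same limma fit), the most negative of the list. Igf2r, whose product carries IGF2 to lysosomes, had 11.8 to 17.1 after fear conditioning and 17.5 and 123 in the home cage libraries, so that home cage library 6 was just above the fear conditioned range. Airn, the antisense transcript of the Igf2r locus, had 151 reads in home cage library 6 and 0 in home cage library 7.

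The groups also lay apart for Peg10, Rasgrf1, Zdbf2, Mcts2 and Gnas, which were lower after fear conditioning. Peg10, a gene derived from a retrotransposon, had 2.87 to 5.45 after fear conditioning and 9.55 and 12.3 in the home cage libraries. Rasgrf1, a calcium-regulated exchange factor for Ras, had 278 to 285 after fear conditioning and 551 and 302 in home cage libraries 6 and 7. Zdbf2 had 17.4 to 21.9 against 33.8 and 59.4, with a log2 difference of -1.13 (standard error 0.39, adjusted p = 0.246 from limma). Gnas, the gene of the stimulatory G protein alpha subunit and of other imprinted isoforms, had 7.66 to 17.8 against 19.001 and 46.0. Mcts2 had 11.2 to 12.7 against 15.7 and 27.1, and its reads may be shared with Mcts1, from which it was copied.

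Higher values in all fear conditioned libraries were found for Mest, H13 and Commd1. Mest, which encodes a hydrolase-like protein, had 34.1 to 43.1 after fear conditioning and 32.3 and 2.90 in home cage libraries 6 and 7, so that home cage library 6 was just below the fear conditioned range. H13, a signal peptide peptidase gene, had 32.6 to 44.3 against 23.6 and 17.5, with a log2 difference of 0.91 (standard error 0.35, adjusted p = 0.274 from limma). Commd1 had 60.6 to 77.4 against 36.7 and 50.9. The genes Mkrn3, Zim1 and Klf14 were under the filter, with 7 to 36 reads in the fear conditioned libraries and 0 reads in both home cage libraries. Every listed gene reached a signal of 1.00 in at least 1 library, and these genes did so only in fear conditioned libraries. They were thus listed only through the group in which they were high, and no difference is read from them.

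Of the abundant genes on the list, Nap1l5, Inpp5f, Ppp1r9a, Blcap, Ube3a, Trappc9 and Zrsr1 showed overlapping groups. Ube3a, the ubiquitin ligase gene of the Angelman syndrome region whose paternal copy is silent in neurons, had 103 to 123 after fear conditioning and 184 and 113 in the home cage libraries. Nap1l5 had 446 to 587 against 946 and 388. In all, 5 of the 30 genes, Usp29, Rtl1, Dio3, Rian and Asb4, had at most 3 reads in home cage library 7 and more in each other library, as Plagl1 and Cdkn1c did. Usp29 starts next to Peg3 and runs in the opposite direction, and it had 372 reads in home cage library 6 and 0 in home cage library 7, where Peg3 had 5779.

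**Figure D4:**
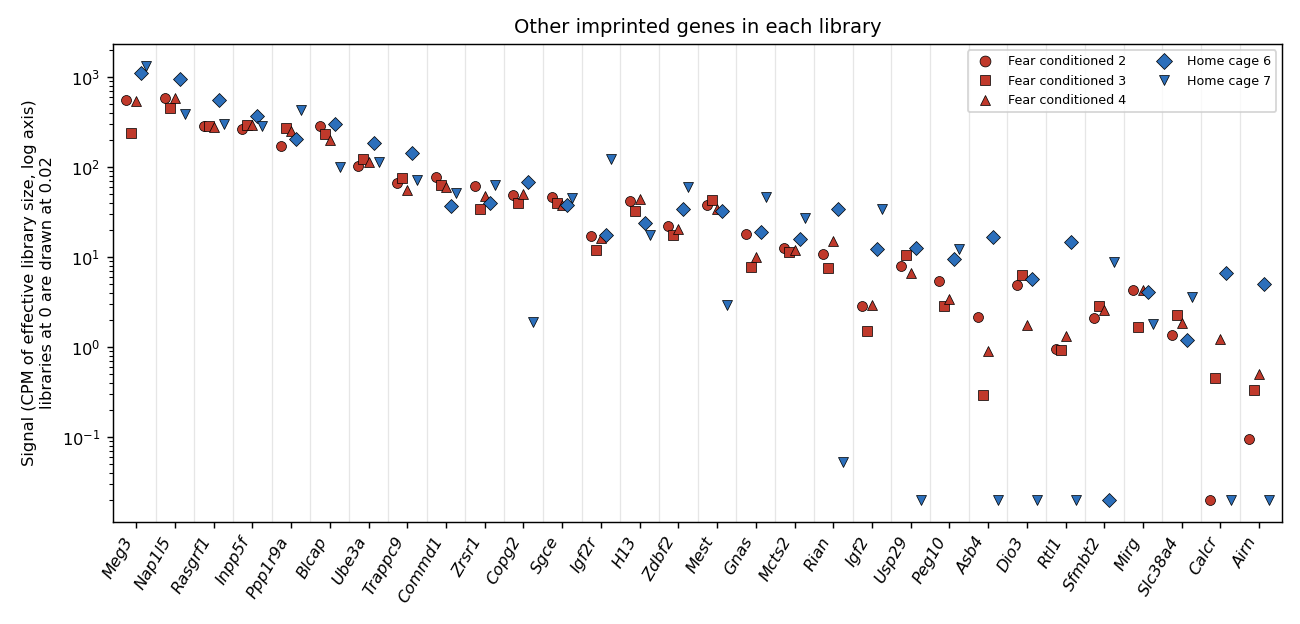
Signal of the 30 other imprinted genes tested, in CPM of the effective library size on a log axis with libraries at 0 drawn at 0.02, ordered by mean signal; each point is 1 library, red for fear conditioned and blue for home cage. Both home cage libraries lie above all fear conditioned libraries for Meg3 and Igf2, and home cage library 7 falls far below the others for genes such as Rian and Rtl1.

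The pathways in which the 10 genes act were examined with lists of partner genes, 85 of which were tested. limma called 0 of the 85 genes in either direction. At an unadjusted p under 0.05 in that fit, 10 were higher and 2 lower after fear conditioning. Of all 13560 genes tested, 1287 were higher and 993 lower at that level, 16.8% together. The groups lay apart for 31 of the 85 genes (36.5%), 21 higher and 10 lower, a share close to the 36.4% of all genes tested. The counts for the single lists are read against that same 36.4%. The adjusted p values ranged from 0.197 to 0.984. Among 27 genes of Notch signalling, to which Dlk1 is related, the groups lay apart for 10. Dll1, a canonical Notch ligand, was covered by 108, 79 and 102 reads in the conditioned mice and by 0 in each home cage library. It reached the mean signal of 1 required for the test only through the fear conditioned libraries, so no fold is given. The Notch targets Hes1 and Hes5 differed in direction, with a signal of 3.65 to 4.37 against 0.601 and 0.633 for Hes1 and of 11.3 to 18.9 against 37.6 and 40.7 for Hes5. Neither passed the test, with limma adjusted p values of 0.230 for Hes1 and 0.217 for Hes5.

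Among 14 genes of insulin and IGF signalling, on which Grb10 acts, the groups lay apart for 7, where 36.4% of all genes tested did so and the list is short. Irs2, an insulin receptor substrate, had 13.1 to 19.5 after fear conditioning and 9.28 and 1.53 in home cage libraries 6 and 7. Akt1, a kinase downstream of the receptors, had 226 to 254 against 202 and 99.3, and Nedd4, a ubiquitin ligase that associates with Grb10, had 261 to 325 against 421 and 409. Among 9 cyclins, kinases and inhibitors beside Cdkn1c, the groups lay apart for 3. Ccne1, the cyclin E1 gene, had 17.8 to 23.0 after fear conditioning, 3.07 in home cage library 6 and 2 reads in home cage library 7. Ccnd2 had 74.1 to 146 against 55.8 and 52.5.

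Of 11 MAGE proteins and partners of Magel2, the groups lay apart for 3. Mageh1 had 24.5 to 32.6 after fear conditioning against 15.8 and 7.07, Usp7, a deubiquitinase that works with MAGEL2, had 117 to 125 against 98.2 and 70.1, and Maged1 had 536 to 641 against 725 and 918. Of 10 genes of the Sm core and its assembly, 2 lay apart, Snrpb and Gemin2, with 16.4 to 20.8 against 7.35 and 6.80 for Gemin2. Of 9 genes of the integrated stress response, which GCN2 triggers and IMPACT restrains, 4 lay apart. Eif2s1, the gene of the phosphorylated subunit eIF2 alpha, had 87.3 to 118 after fear conditioning against 49.3 and 45.4, with a log2 difference of 1.07 (standard error 0.25, adjusted p = 0.197, limma). Of 4 genes of calcium uptake into the endoplasmic reticulum, 2 lay apart, Pln and Sln, both at a signal under 3 in every library. Plagl2, the relative of Plagl1 that was tested, had 2.33 to 5.51 after fear conditioning and 2 reads in home cage library 6 and 34.6 in home cage library 7.

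The 5 genes with profiles nearest to that of Dlk1 over the 5 libraries, by Euclidean distance of centred log2(signal + 1), were Casp6, Ms4a6b, Akap13, Col1a2 and Ltbp1, with distances from 0.479 to 0.547 against 0.896 for Magel2. Each of the 5 was higher in home cage library 7 than in home cage library 6 and higher in both than in any fear conditioned library. This is the order of Dlk1 itself and follows from choosing the genes by their distance to it. Akap13, for example, had 4.97 to 10.4 after fear conditioning and 27.2 and 73.5 in the home cage libraries. Casp6 had 1.21 to 2.66 against 9.82 and 39.9.

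Markers of other cell types differed between the groups. Of the markers looked at singly, Drd2, Drd1a, Penk, Ttr, Slc17a7, Mbp, Gfap and Cldn5, none was at 0 in any library. Striatal projection neuron genes, with 9 of 9 in the table, summed to between 22356 and 24262 in the fear conditioned libraries and to between 8232 and 13977 in the home cage libraries, and Penk alone had 13565 to 16076 against 6098 and 8606. Choroid plexus genes, with 8 of 8 in the table, summed to between 108 and 183 after fear conditioning and to between 1897 and 2212 in the home cage libraries, with Ttr at 0.348 to 22.1 against 913 and 1320 and Enpp2 at 49.9 to 72.4 against 1201 and 482. The groups lay apart for 4 of these 8 genes, all lower after fear conditioning. They overlapped for Clic6 and for Aqp1, Otx2 and Folr1, which had 0, 0 and 1 reads in home cage library 7. Meningeal and perivascular fibroblast genes, with 4 of 6 in the table, summed to 4.17 to 11.5 against 24.3 to 38.1, but their members differed in direction. Col1a2 had 0.993 to 1.21 against 7.71 and 24.2, Dcn had 2.18 to 8.54 against 30.3 and 0.105, Slc6a13 had 0.474 to 1.39 against 0.0334 and 0, and Col3a1 was at 0 in both home cage libraries and in fear conditioned library 2, while Col1a1 was not in the table. Astrocyte genes (5 of 5 in the table) summed to 206 to 247 against 473 to 562 and microglia genes (5 of 5) to 23.9 to 52.7 against 53.9 to 65.2, with Aif1 among the microglia genes higher in every fear conditioned library. Endothelial and mural genes (8 of 8) summed to 13.3 to 41.7 against 69.7 to 81.5, with Rgs5 at 5.83 to 11.7 against 48.3 and 36.2. The endothelial Cldn5 and Tek lay in the other direction, with 1.79 to 8.91 against 1.14 and 0.0527 for Cldn5 and 0.125 to 2.47 against 0 and 0 for Tek. Tek, Slc6a13 and Col3a1 reached the signal of 1.00 shared by all listed genes only in fear conditioned libraries, so nothing is read from their direction. Pallial glutamatergic neuron genes (6 of 6) summed to 47.8 to 200 against 256 to 356, with Slc17a7 at 34.5 to 152 against 227 and 197. Of these 6 genes, 3 were lower and 1 was higher in every fear conditioned library, and the groups overlapped for the rest. The groups overlapped for oligodendrocyte genes (5 of 5), with 1058 to 2399 against 2322 to 4831, for central amygdala neuron genes (6 of 6), with 155 to 291 against 286 to 489, and for hypothalamic and medial amygdala genes (3 of 7), with 4.92 to 11.2 against 8.33 to 32.3. In pools such as these, fewer cells of a type and less RNA per cell cannot be told apart, and the part of these cell types in the values of Dlk1, Magel2, Grb10, Peg3 and Igf2 was not tested.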

How the data were processed

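RNA of tagged ribosomes was amplified with the SMARTer and Nextera XT kits and sequenced by the authors, who deposited, with gene lengths, a normalized signal that amounts to CPM of the effective size of each library. The submitters' processing notes name DESeq and the build mm8, and the study names Tuxedo DESeq. The aligner, versions and use of strand were not given in the sources used here. Dividing each library by its lowest value above 0 gave whole numbers, within 0.01, for 100% of values, which were used as recovered reads. Floors reflect counting error alone, because PCR copies of a molecule are counted separately. The design had foreseen CPM, and the limma test for CPM was kept. A gene name table held 14622 of the identifiers, and 9 lengths below 0 were not used.

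Groups were compared with limma 3.58.1 (eBayes with a trend, two-sided, Benjamini-Hochberg adjustment) on log2(signal + 1) over genes with a mean of at least 1. This scale shrinks differences of genes with low signal. Levels per kilobase were compared as log2(value + 0.1). edgeR 4.0.16 and DESeq2 1.42.0 on recovered reads, a pseudocount of 0.1, no filter, quantile normalization and each library left out were alternatives. Counts were also simulated with real means and depths, and the fear conditioned spread in each group. In these, limma found 193 of 200 genes changed by a log2 of 3 among 13520 tested and called 13 others. edgeR found 197 and called 15 others among 14811, and DESeq2 found 195 and called 36 others among 15093. The real home cage libraries differed more than the simulated ones, so these figures do not tell how many changed genes each tool would find here. R 4.3.3 and Python 3.11.15 were used.

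The 10 genes and all lists were chosen with earlier results of these data known. The genes named are the 10, other imprinted genes whose groups lie apart or whose level is among the 10 highest of that list, up to 3 genes with the smallest unadjusted p of each partner list, the 5 nearest to Dlk1 and defining markers. Usp29, Rtl1, Dio3, Rian, Mirg, Airn and Asb4, and the markers Col1a2, Col3a1, Dcn, Slc6a13, Rgs5, Tek, Aif1, Enpp2, Aqp1, Otx2, Folr1 and Clic6, were named after their values were seen. Promoter sequences are from RefSeq (GRCm38.p6), whose coordinates are not those of mm8.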

Additional observations from a re-analysis of the deposited data

How the results depend on the processing

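The count of genes called depended on the tool and on the home cage libraries. DESeq2 on recovered reads called 1128 genes (7.47% of 15093). Among these were 5 of the 10 imprinted genes, 2 of the other imprinted genes (Igf2 and Meg3) and 5 partner genes. By contrast, limma and edgeR's quasi-likelihood test called 0 genes. With each library left out, limma called between 0 and 8025 genes in all, 0 to 9 of the 10 genes, 0 to 16 other imprinted genes and 0 to 51 partner genes. The high counts came without home cage library 6 (8025, 9, 16 and 51) or without home cage library 7 (3722, 5, 12 and 32), when the remaining home cage library is assumed to vary like the fear conditioned libraries. Without fear conditioned library 3, 1 gene was called. Calls among the 10 genes are given only to show what a setting does, since the genes were chosen on this comparison. With each library left out, the number of genes with groups apart ranged from 5 to 10 of the 10 genes (9 without home cage library 6 and 10 without home cage library 7) and from 11 to 25 of the other imprinted genes (24 and 25). It was 4 and 10 after quantile normalization and 5 and 10 with recovered reads scaled by TMM. Without home cage library 6 or 7, a gene counted as apart whenever the remaining home cage value lay outside the fear conditioned range. The share of all genes tested was not counted under these settings, so nothing about imprinted genes is read from the higher counts. The log2 differences of Dlk1, Magel2, Grb10, Peg3, Nnat and Snrpn kept their sign in all 10 alternatives. DESeq2 moved the median of all genes by -0.12 and leaving out home cage library 7 by -0.12. Without division by gene length, 4 of the 10 genes kept their place in the order of levels. No paired analysis was possible because the groups share no replicate numbers. With 3 and 2 libraries a group, no test for an outlying library was made.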
